A study of Mus musculus with 18 samples.

Results

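The results concern 10 immediate early genes (Fos, Fosb, Jun, Junb, Jund, Egr1, Nr4a1, Nr4a2, Atf3 and Ier2) in mouse ovaries removed 16 hours after an ovulatory dose of human chorionic gonadotropin (hCG). They were taken by gene symbol from the 55416 genes of each deposited table, with no cut on their measured values. Earlier results of these data were known when the set was chosen. All 18 libraries came from wild-type female Balb/c mice, 1 ovary RNA sample per mouse and 6 mice per group. The OC+SM mice were 40 weeks old and were given the herbal decoction Samul-tang orally (2.5 g/kg). The OC mice were 40 weeks old and the YC mice 8 weeks old, and both had distilled water as the oral dose. Doses were given on 5 occasions a week over 4 weeks. Follicle growth was then stimulated in all 18 mice with pregnant mare serum gonadotropin (5 IU), and hCG (also 5 IU) followed after 48 hours. OC and OC+SM mice were kept apart inside shared cages, per the labels' protocols. No ovary without hCG and no earlier time after hCG was analysed here, so the values below are levels at 16 hours and do not measure induction.

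Immediate early genes are switched on by transcription factors that a cell already holds, without new protein synthesis, and their mRNAs are usually short-lived. Fos and Jun proteins pair to form the dimeric factor AP-1, Egr1 is a zinc finger factor, and Nr4a1 and Nr4a2 are orphan nuclear receptors. In granulosa cells of the ovulating follicle the luteinizing hormone receptor, which hCG also binds, signals through cyclic AMP, protein kinase A and MAP kinases. Egr1 and Nr4a1 are known as transient targets of that signal in rodent follicles.

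The promoters of 4 of the genes are shown because they carry a short form or a variant of the DNA motif by which cyclic AMP is known to reach this class of gene. Each run is the 250 bases before the transcription start in the RefSeq promoter table, build GRCm38.p6, written 5′ to 3′ on the gene's own strand. That build differs from the GRCm39 of the deposited tables, and no coordinate is carried between them. Capitals mark matches to the motifs named after the sequences.
Fos (chr12:85473640-85473889, + strand): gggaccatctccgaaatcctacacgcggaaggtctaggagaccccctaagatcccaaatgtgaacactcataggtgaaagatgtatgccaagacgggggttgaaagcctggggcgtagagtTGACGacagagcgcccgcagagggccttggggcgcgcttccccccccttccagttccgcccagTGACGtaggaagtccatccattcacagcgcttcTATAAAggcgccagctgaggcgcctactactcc
Jun (chr4:95052223-95052472, - strand): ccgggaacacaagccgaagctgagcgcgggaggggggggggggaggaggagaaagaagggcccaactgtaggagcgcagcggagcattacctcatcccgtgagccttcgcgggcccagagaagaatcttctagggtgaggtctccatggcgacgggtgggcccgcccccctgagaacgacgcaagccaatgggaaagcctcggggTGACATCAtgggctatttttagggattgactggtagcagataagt
Nr4a1 (chr15:101266596-101266845, + strand): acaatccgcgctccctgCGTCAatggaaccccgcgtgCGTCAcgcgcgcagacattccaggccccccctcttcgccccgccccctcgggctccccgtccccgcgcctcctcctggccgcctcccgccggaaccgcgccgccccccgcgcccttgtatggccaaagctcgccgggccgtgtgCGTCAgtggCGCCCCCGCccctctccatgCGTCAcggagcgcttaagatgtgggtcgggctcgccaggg
Nr4a2 (chr2:57124004-57124253, - strand): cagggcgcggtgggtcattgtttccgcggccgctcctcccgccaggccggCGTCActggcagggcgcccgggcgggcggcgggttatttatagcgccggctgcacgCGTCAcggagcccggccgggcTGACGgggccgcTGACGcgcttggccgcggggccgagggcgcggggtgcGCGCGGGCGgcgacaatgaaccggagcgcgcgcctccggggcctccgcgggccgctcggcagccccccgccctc

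The table held a promoter for 8 of the 10 genes, all but Egr1 and Ier2. The short cyclic AMP response element TGACG was searched on both strands and stood in 6 of those 8 (Atf3, Fos, Fosb, Junb, Nr4a1 and Nr4a2), against 17.77% of all 32851 promoters in the table. Nr4a1 and Nr4a2 held 4 matches each and Fos held 2. The Jun promoter held TGACATCA, a variant of that element that 2.93% of promoters hold, on either strand. The binding motif of the Egr family, GCGNGGGCG on both strands, stood in Fosb, Nr4a1 and Nr4a2 and in 4.70% of all promoters. Fos held TATAAA, read on the coding strand only, which 7.59% of promoters hold. The full element TGACGTCA, which contains the short one, was in none of the 8 windows and in 1.55% of all promoters. The AP-1 motif TGANTCA (6.75% of promoters), the serum response CArG box (1.47%) and the Nr4a motif AAAGGTCA (1.34%) had no match in these 8 windows either. A match describes the letters only, and no binding was measured in these libraries.

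Sequencing depth, as the sum of expected counts divided by 1000000, was 14.2 to 20.35 per library in OC+SM ovaries, 11.61 to 13.43 in OC ovaries and 9.05 to 14.15 in YC ovaries. Every OC+SM library was thus deeper than every OC library, and a difference in preparation or sequencing between these groups cannot be told apart from treatment. The 10 genes together took 306 to 402 CPM (expected counts per 1000000, with TMM scaling of the libraries) in OC+SM, 335 to 407 in OC and 350 to 430 in YC. The highest and lowest of these sums were in OC+SM 4 and OC+SM 2, OC 3 and OC 1, and YC 3 and YC 2, with OC 6 (335.8) next to OC 1 (335.1). All 13 marker lists for ovarian and other cell types had members with counts. The oocyte, granulosa and luteal lists were detected in full, as fits the ovary label, and Lep of the adipocyte list was the one marker at 0 in all 18 libraries. Library YC 3 stood apart from the other young libraries. Its mean correlation of log2 CPM with its own group was 0.964, against 0.976 to 0.977 for the other 5 young libraries, and it was the shallowest of the 18. OC+SM 6 had a mean correlation of 0.963 with its group. Results that rest on these libraries are given with and without them.

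The order of the genes by level was taken from the authors' TPM, which divides by gene length, although that division does not suit reads from the 3' end of transcripts. By TPM, Jund was the most abundant gene with 98.5 ± 9.05 TPM (SD, n = 18). Jun followed with 18.01 ± 2.29 TPM, Junb with 15.8 ± 2.58, Nr4a1 with 11.8 ± 4.95, Egr1 with 11.1 ± 5.09, Ier2 with 8.47 ± 1.49 and Nr4a2 with 5.54 ± 1.04. At the low end stood Atf3 with 1.41 ± 0.758 TPM, Fos with 1.19 ± 0.510 and Fosb with 0.378 ± 0.262. Neighbours in this order were not always separate within a library. Nr4a1 lay above Egr1 in 12 of 18 libraries, Atf3 above Fos in 12, Jun above Junb in 14 and Egr1 above Ier2 in 15. Junb lay above Nr4a1 in 16, Ier2 above Nr4a2 in 17 and Fos above Fosb in 17, while Jund lay above Jun and Nr4a2 above Atf3 in all 18. By mean CPM, with no division by length, the order was Jund (167), Jun (59.6), Egr1 (40.6), Nr4a1 (30.1), Junb (29.3), Nr4a2 (15.6), Ier2 (13.1), Fos (2.55), Atf3 (1.58) and Fosb (1.04). Egr1 thus lay above Nr4a1 and Junb by CPM and below them by TPM, while Jund and Jun led on both scales. Fos, the gene best known as an immediate early marker, was among the lowest 3 on both scales. Its expected counts were only 15 to 56 per library, those of Fosb 2 to 32 and those of Atf3 5 to 43, so their values carry the most counting error.

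**Figure D1:**
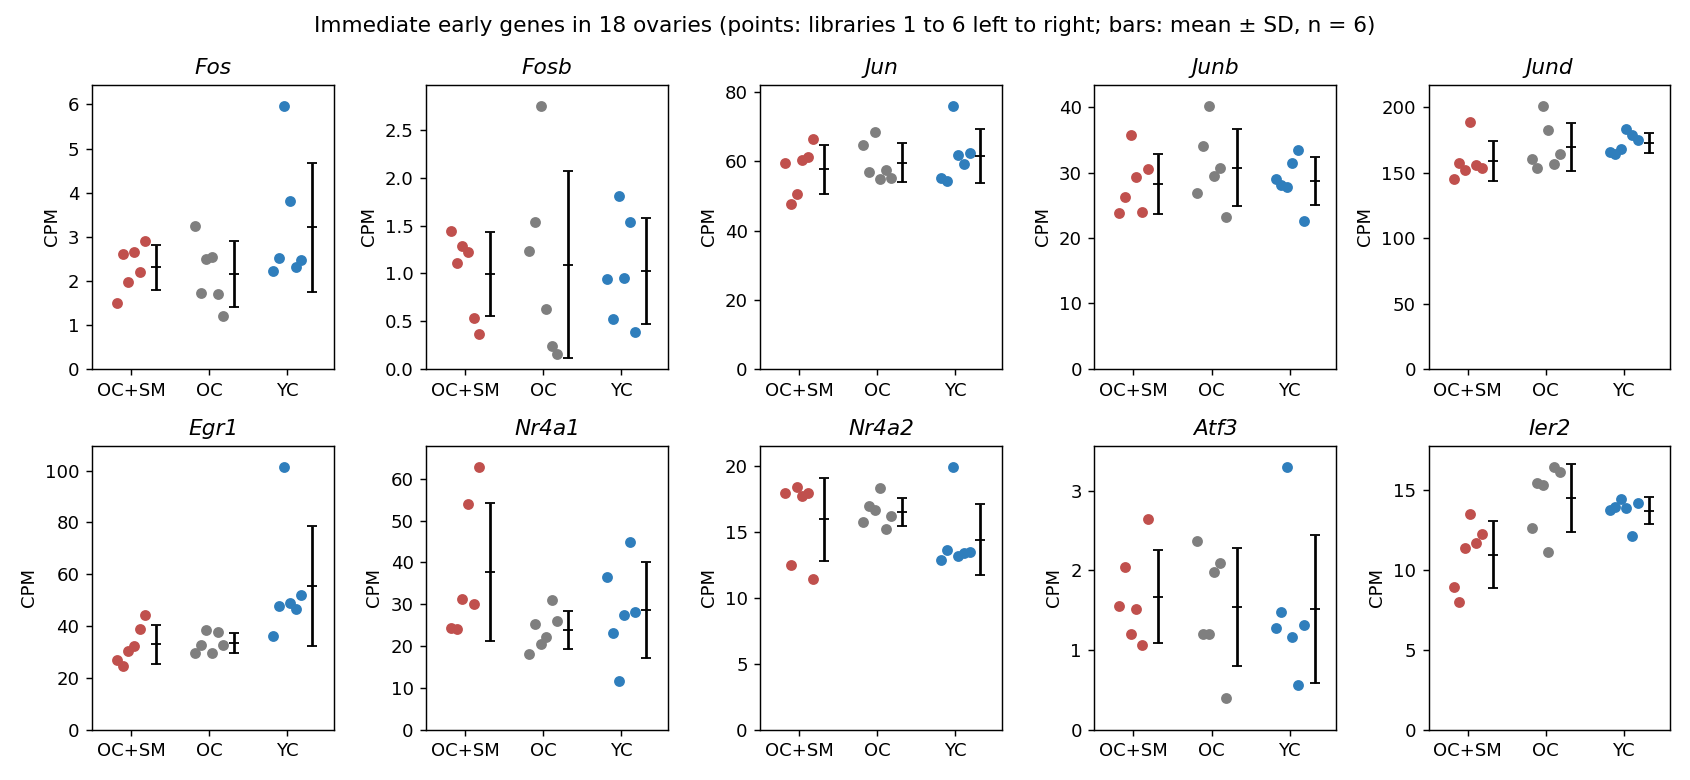
CPM of the 10 immediate early genes in each ovary, with OC+SM, OC and YC from left to right. Points are libraries 1 to 6 in order and bars are the mean ± SD (n = 6). The YC 3 library (point 3 of the right-hand group) is the highest young library for Egr1 at 102 CPM and the lowest for Nr4a1 at 11.6 CPM.

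Egr1 was the only one of the 10 genes whose level differed between aged and young ovaries past the threshold. Egr1 (ENSMUSG00000038418), a zinc finger transcription factor, is known to be needed for luteinizing hormone beta expression in the mouse pituitary and is itself hormone-responsive in the follicle. Its lowest, median and highest values were 24.4, 31.4 and 44.3 CPM in OC+SM, 29.4, 32.7 and 38.5 CPM in OC, and 36.1, 48.2 and 102 CPM in YC. The aged groups covered much the same range, and the young group lay higher with some overlap: 4 of 6 OC libraries and 4 of 6 OC+SM libraries were below every young library. Egr1 averaged 33.4 ± 3.85 CPM in OC and 55.5 ± 23.2 CPM in YC (SD, n = 6 each). The log2 fold change of OC over YC was -0.72 ± 0.21 (SE, 95% interval -1.17 to -0.28), a level 0.605 times that of YC, with an adjusted p of 0.0335 by the edgeR quasi-likelihood test. OC+SM over YC gave -0.75 ± 0.21 (edgeR adjusted p = 0.0163), and OC+SM over OC gave -0.02 ± 0.21 (interval -0.47 to 0.42, edgeR adjusted p = 0.973). The 2 comparisons with young mice share the same 6 young libraries.

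The size of the Egr1 difference depended on 1 young mouse. Without YC 3, whose 102 CPM compares with 36.1 to 52.0 CPM in the other 5 young libraries, the change was -0.47 for OC over YC (edgeR adjusted p = 0.0254) and -0.49 for OC+SM over YC (edgeR adjusted p = 0.0115). The call for OC against YC was close to the threshold: it was kept in 21 of 29 alternative analyses and lost in 8, namely limma-voom (adjusted p = 0.0502), edgeR without the filter on low counts (adjusted p = 0.0730), edgeR on only these 12 libraries (adjusted p = 0.0586) and the fits without OC 1, OC 2, OC 4, OC 6 or YC 6 (edgeR adjusted p from 0.0531 to 0.0723). The call for OC+SM against YC was kept in all 29.

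In whole ovaries, fewer cells of a type and less RNA per cell cannot be told apart. Several cell type lists differed between the same groups as Egr1. All 7 oocyte markers were lower in OC than in YC, and their summed level was 29.3 to 58.9 CPM in OC+SM, 28.8 to 50.5 in OC and 91.0 to 151 in YC. Of 7 granulosa markers 4 were lower in OC, with sums of 495 to 878 CPM in OC+SM, 625 to 960 in OC and 966 to 1261 in YC. The theca list (2 of 5 lower) summed to 113 to 191 CPM in OC+SM, 105 to 148 in OC and 191 to 537 in YC. The smooth muscle list (4 of 6 lower) summed to 634 to 772 CPM in OC+SM, 766 to 874 in OC and 860 to 1493 in YC. The luteal list went the other way: 2 of 6 markers were higher in OC, and the sums were 13411 to 15992 CPM in OC+SM, 12942 to 15012 in OC and 8522 to 11528 in YC. The young extremes of 537 (theca), 860 (smooth muscle) and 8522 (luteal) were all YC 3, beside 191 to 279, 1245 to 1493 and 9772 to 11528 in the other young libraries. Of 6 endothelial markers 3 were higher and 1 lower in OC. The macrophage (of 6), T, NK and B cell (of 3 tested) and adipocyte (of 2 tested) lists each had 1 higher. Of all genes tested 5.25% were higher and 6.03% lower. The part of these cell types in the Egr1 difference was not tested.

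**Figure D2:**
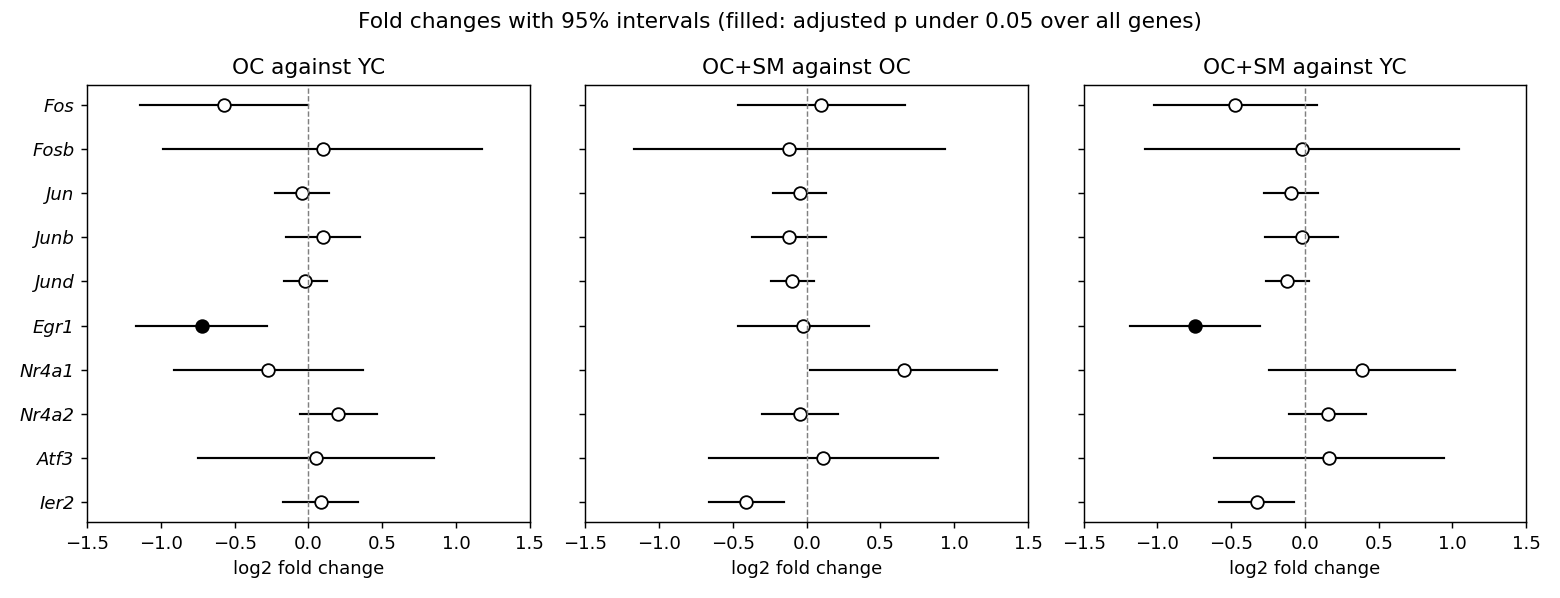
Log2 fold changes of the 10 genes in the 3 comparisons, with 95% intervals from the edgeR fit; filled points have an adjusted p under 0.05. The filled points are Egr1 in OC against YC (-0.72) and in OC+SM against YC (-0.75), and the widest intervals are those of Fosb.

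Read over all 10 genes, 1 passed the edgeR threshold (adjusted p under 0.05 over 16959 genes) in OC against YC, Egr1, which was lower. Of all genes tested 11.3% passed in that comparison, 5.25% higher and 6.03% lower, so 1 of 10 is near the background. The OC+SM against YC comparison again had 1 of 10, Egr1, which was lower, where 22.4% of all genes passed (11.5% higher and 10.9% lower). Between OC+SM and OC none of the 10 passed by edgeR, where 1.04% of all genes did (0.548% higher and 0.489% lower). There 2 (Ier2 and Nr4a1) had an unadjusted p under 0.05, as had 16.87% of all genes. DESeq2 called 1 (Ier2, with 1 of the 10 left without an adjusted p), where it called 663 genes in all, and limma-voom called none of the 10. For all 10 genes the groups overlapped in every comparison. The share of all genes whose groups did not overlap was 7.38% in OC against YC, 1.53% in OC+SM against OC and 9.50% in OC+SM against YC. The median log2 fold change of the 10 genes was 0.01, -0.05 and -0.06 in these comparisons, in the same order, beside 0.01, 0.01 and 0.00 over all genes tested.

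Among the AP-1 genes, Fos (ENSMUSG00000021250) encodes the founding member of the Fos proteins, which bind DNA only as partners of Jun proteins. Fos had a lowest, median and highest level of 1.496, 2.40 and 2.89 CPM in OC+SM, 1.19, 2.10 and 3.25 CPM in OC, and 2.22, 2.50 and 5.97 CPM in YC. The medians were close, and 3 of 6 OC libraries lay below every young library. OC over YC gave a log2 fold change of -0.57 ± 0.28, with an unadjusted edgeR p of 0.0495 and an adjusted p of 0.206. Without YC 3, the library with 5.97 CPM, that change was -0.32 (edgeR adjusted p = 0.515). OC+SM over OC gave 0.10 ± 0.28 with an interval from -0.47 to 0.67. Fosb (ENSMUSG00000003545), a close relative of Fos, ranged from 0.369 to 1.44 CPM in OC+SM, 0.159 to 2.75 in OC and 0.388 to 1.81 in YC. Its intervals in the 3 comparisons reached about 1 log2 unit to either side of 0, and its sign changed with the processing, so no direction is given.

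Jund and Jun had the smallest spread of the 10 genes in the edgeR fit over all 3 groups, though not within each group. Jun (ENSMUSG00000052684), which can act as a dimer with itself or with Fos proteins, had a lowest, median and highest level of 47.8, 60.01 and 66.4 CPM in OC+SM, 55.1, 57.2 and 68.4 CPM in OC, and 54.4, 60.7 and 76.1 CPM in YC. The log2 fold change was -0.05 ± 0.09 for OC over YC (interval -0.23 to 0.14) and -0.05 ± 0.09 for OC+SM over OC (interval -0.23 to 0.13). Jund (ENSMUSG00000071076), which is known to be expressed in resting cells more than the other Jun genes, had 145, 155 and 189 CPM in OC+SM, 154, 163 and 201 CPM in OC, and 164, 171 and 183 CPM in YC. In OC+SM 5 of 6 libraries lay below every young library, and only OC+SM 4 lay above them. Jund changed by -0.12 ± 0.07 in OC+SM over YC (interval -0.26 to 0.03, edgeR adjusted p = 0.245) and by -0.02 ± 0.07 in OC over YC (interval -0.17 to 0.12). Junb (ENSMUSG00000052837), often an antagonist of Jun in AP-1, covered 23.9 to 35.7 CPM in OC+SM, 23.2 to 40.2 in OC and 22.6 to 33.4 in YC. Its change was 0.10 ± 0.12 in OC over YC (interval -0.16 to 0.35) and -0.12 ± 0.12 in OC+SM over OC (interval -0.37 to 0.13).

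Nr4a1 (ENSMUSG00000023034), also called Nur77, is an orphan nuclear receptor known to drive steroidogenic genes in theca and Leydig cells. Its lowest, median and highest levels were 24.2, 30.6 and 62.9 CPM in OC+SM, 18.2, 23.7 and 30.9 CPM in OC, and 11.6, 27.7 and 45.0 CPM in YC. In OC+SM 3 of 6 libraries lay above every OC library, led by OC+SM 6 with 62.9 and OC+SM 4 with 53.8 CPM. Nr4a1 averaged 37.8 ± 16.5 CPM in OC+SM and 23.8 ± 4.53 CPM in OC. The log2 fold change of OC+SM over OC was 0.66 ± 0.30 (interval 0.02 to 1.29), with an unadjusted edgeR p of 0.0432 and an adjusted p of 0.277. It was 0.45 without OC+SM 6 (edgeR adjusted p = 0.466), and no single library that was left out brought it past the threshold. OC over YC gave -0.27 ± 0.30, and -0.43 without YC 3. OC+SM over YC gave 0.39 ± 0.30, 0.18 without OC+SM 6 and 0.025 without both YC 3 and OC+SM 6.

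Nr4a2 (ENSMUSG00000026826), also called Nurr1, is the sister receptor that binds the same DNA motif. Its lowest, median and highest levels were 11.4, 17.8 and 18.4 CPM in OC+SM, 15.2, 16.4 and 18.3 CPM in OC, and 12.8, 13.4 and 19.9 CPM in YC. Among young mice 5 libraries lay between 12.8 and 13.6 CPM, below all 6 OC libraries, and YC 3 lay above them all. OC over YC gave 0.20 ± 0.13 (edgeR adjusted p = 0.358) with all libraries, and 0.31 (edgeR adjusted p = 0.101) without YC 3. With all libraries OC+SM over YC gave 0.15 ± 0.13 (edgeR adjusted p = 0.416). Without both YC 3 and OC+SM 6, an analysis added after the values were seen, the change was 0.31 for OC over YC (edgeR adjusted p = 0.0408) and 0.34 for OC+SM over YC (edgeR adjusted p = 0.0187). For each of these changes it was the only 1 of 29 alternatives that passed. It leaves out the highest young library and the lowest OC+SM library of this gene.

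Ier2 (ENSMUSG00000053560), a short nuclear protein named as an immediate early response gene, had the smallest p of the 10 genes in OC+SM against OC, where 176 of all genes passed and Ier2 did not. Its lowest, median and highest levels were 8.01, 11.5 and 13.5 CPM in OC+SM, 11.1, 15.4 and 16.5 CPM in OC, and 12.1, 13.9 and 14.5 CPM in YC. In OC+SM 2 of 6 libraries lay below every OC library and 4 of 6 below every young library. Ier2 averaged 10.97 ± 2.09 CPM in OC+SM and 14.5 ± 2.15 CPM in OC. OC+SM over OC gave -0.41 ± 0.12 (interval -0.66 to -0.16), with an unadjusted edgeR p of 0.00276 and an adjusted p of 0.0870. The adjusted p was 0.0386 by DESeq2 and 0.0354 by edgeR without OC+SM 4, and missed the threshold in the other 27 of 29 alternatives. OC+SM over YC gave -0.33 ± 0.12 (edgeR adjusted p = 0.0584), and 9 of 29 alternatives passed. OC over YC gave 0.08 ± 0.12 (interval -0.17 to 0.34).

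Atf3 (ENSMUSG00000026628), a stress-responsive factor of the ATF and CREB family, ranged from 1.07 to 2.64 CPM in OC+SM, 0.398 to 2.37 in OC and 0.561 to 3.30 in YC. The highest young value was that of YC 3, and the other 5 young libraries lay between 0.561 and 1.48 CPM. Its changes were 0.05 ± 0.39 in OC over YC and 0.11 ± 0.38 in OC+SM over OC, with intervals of -0.75 to 0.85 and -0.66 to 0.89.

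The young library YC 3 carried a different pattern across the set. It held the highest young level of 7 of the 10 genes, where it held the highest for 26.0% of all genes tested, and the lowest level of Nr4a1. Among the ovulatory target genes, YC 3 had 0.746 CPM of Ereg, an EGF-like ligand induced by the ovulatory signal, against 5.25 to 8.55 in the other 5 young libraries. Adamts1, a protease of the ovulating follicle, was at 29.2 CPM in YC 3 and 98.6 to 133 in the others, and Runx1, a transcription factor induced before ovulation, at 17.7 and 39.5 to 55.3. Star, which brings cholesterol into mitochondria for steroid synthesis, was at 697 CPM in YC 3 and 1383 to 1799 in the others, while Lhcgr, the receptor that hCG binds, was at 414 and 164 to 232. The macrophage list summed to 201 CPM in YC 3 and 122 to 148 in the others, with all 6 of its genes highest in YC 3. The theca list summed to 537 CPM and 191 to 279, but only 2 of its 5 genes were highest in YC 3 and 1 was lowest. The smooth muscle list summed to 860 and 1245 to 1493, with 5 of its 6 genes lowest in YC 3. The heat shock list summed to 3415 CPM in YC 3, inside the 3384 to 4069 of the others. The constitutive Hspa8 weighs far more in that sum than the inducible Hspa1a, so the sum cannot show a response of Hspa1a. What part these differences have in the levels of the 10 genes in YC 3 was not tested.

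**Figure D3:**
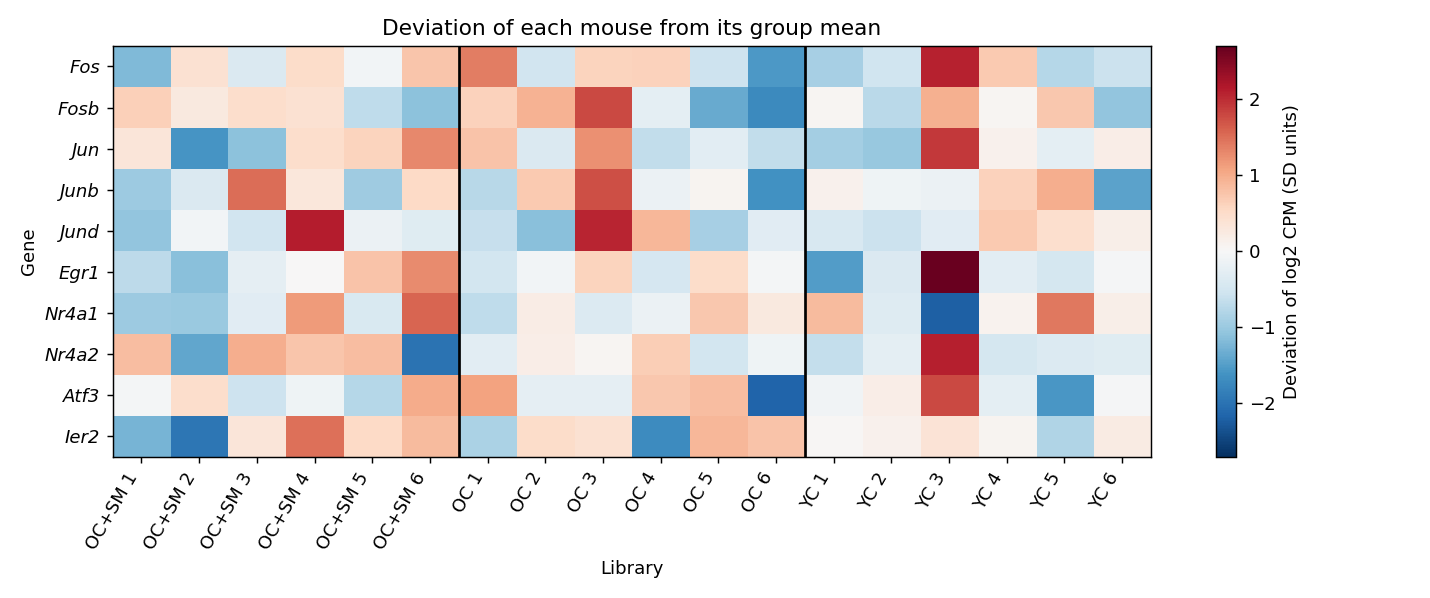
Deviation of each library from the mean of its group in log2 CPM, in units of each gene's SD within groups (colour scale). Genes are in rows and libraries in columns, and vertical lines part OC+SM, OC and YC. In YC 3 the deviation was 2.68 for Egr1, 2.10 for Nr4a2 and -2.19 for Nr4a1.

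How far mice of 1 group differed also set the genes apart. The biological coefficient of variation, the spread between mice beyond counting error in the edgeR fit, was 35.3% for Nr4a1 and 24.6% for Egr1. Against the 200 genes nearest in level on each side, these were at percentiles 99.3 and 96.5. Without YC 3 they were 29.9% and 15.2%, at percentiles 98.0 and 93.8. Fosb (55.8%, percentile 93.5) and Junb (14.6%, percentile 87.5) were also high for their level. Jund (9.83%, percentile 51.9) and Ier2 (14.1%, percentile 50.1) were near the middle.

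Whether the genes moved together from mouse to mouse was examined after the group means were removed, over 45 pairs of genes and 18 mice. Of these pairs 33 had a positive r, and the median r was 0.17. By Pearson r, 6 pairs had an unadjusted permutation p under 0.05 and none had an adjusted p under 0.05. The highest was Jun with Egr1: r was 0.77 (permutation p = 0.00117, adjusted p = 0.0527), rho was 0.61 (permutation p = 0.0159, adjusted p = 0.357), and r was 0.53 without YC 3 and OC+SM 2, the mice farthest from the median of Jun. Its r was 0.79 within OC+SM, 0.32 within OC and 0.93 within YC. YC 3 held the highest young level of both genes (76.1 CPM of Jun and 102 CPM of Egr1), and the r within YC was not taken without it. Fos with Atf3 had an r of 0.72 (permutation p = 0.00353, adjusted p = 0.0794) and a rho of 0.50 (permutation p = 0.0487, adjusted p = 0.463), and an r of 0.53 without the 2 farthest mice.

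Egr1 with Ier2 was the pair that passed by rank, with a rho of 0.82 (permutation p = 6e-05, adjusted p = 0.0027). Its Pearson r was 0.51 (permutation p = 0.00887, adjusted p = 0.133) and 0.65 without YC 3 and OC+SM 6, the 2 farthest mice. Within groups r was 0.77 in OC+SM, 0.75 in OC and 0.42 in YC. Over 18 mice, 5.32% of the other tested genes had a Pearson r with Egr1 at least as high as that of this pair. With Ier2 the share was 4.03%. Nr4a1 with Nr4a2 had the lowest r, -0.55 (permutation p = 0.0422, adjusted p = 0.317), with a rho of -0.45 (permutation p = 0.102, adjusted p = 0.545). That relation rested on YC 3 and OC+SM 6, since r was 0.17 without them.

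Other genes were ranked by how like their deviations were to the mean standardised deviation of the 10 genes, over 18 mice and 11374 genes with at least 5 CPM. Each r is a description with no test, and libraries share depth and the outlying mice. The highest were Irx5, a homeobox factor of the granulosa lineage in mice (r = 0.82), Tmem50b (0.81), Sntb2 (0.80), Kifap3 (0.79) and Atxn10 (0.78). The lowest were Dnlz (-0.91), the translation elongation factor Eef1a1 (-0.84), Pdlim2 (-0.83), the ribosomal protein gene Rpl32 (-0.82) and the ubiquitin ligase Siah2 (-0.82). Without the 2 mice farthest from the median, these r values were 0.69 to 0.74 and -0.64 to -0.86. Each of the 10 genes is part of the mean profile it is set against: Jun had the highest r, 0.76, and 0.60 without the 2 mice. Nr4a1 had the lowest, -0.05, but 0.52 without them, where Nr4a2 was lowest at 0.11.

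Of 18 relatives of the 10 genes (other Fos, Egr, Nr4a, Ier, ATF, BATF and small Maf genes), 16 could be tested. In OC against YC 1 was higher and none lower, near the shares of all genes given above. The higher one was Fosl2 (Fra-2), a Fos relative that pairs with Jun proteins, with lowest, median and highest levels of 316, 380 and 409 CPM in OC+SM, 319, 396 and 422 CPM in OC, and 236, 265 and 338 CPM in YC. The change of Fosl2 was 0.50 ± 0.08 in OC over YC (edgeR adjusted p = 0.000162) and 0.47 ± 0.08 in OC+SM over YC (edgeR adjusted p = 0.000227), and the call was kept in all 29 alternatives for both. Against OC, OC+SM gave -0.03 ± 0.08 (edgeR adjusted p = 0.895). Egr3, a relative of Egr1, averaged 0.575 ± 0.285 CPM in OC+SM and 1.47 ± 0.377 CPM in YC and was lower in OC+SM (-1.33 ± 0.34, edgeR adjusted p = 0.00689). In OC it averaged 0.965 CPM, with a change over YC of -0.60 ± 0.34 that did not pass (edgeR adjusted p = 0.290). Atf7, of the ATF family, was lower in OC+SM than in YC (32.8 and 39.2 CPM, -0.26 ± 0.07, edgeR adjusted p = 0.0151), a call lost in both TPM fits. Egr2 (-0.21 ± 0.29 in OC over YC) and Nr4a3 (-0.37 ± 0.39) did not pass. None of the 16 passed in OC+SM against OC by edgeR, 2 had an unadjusted p under 0.05, and neither DESeq2 (5 of the 16 had no adjusted p) nor limma-voom called any. Of all genes tested 16.87% had an unadjusted edgeR p under 0.05 there.

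Of 24 other immediate early genes 22 could be tested, and none passed in OC against YC by edgeR, DESeq2 or limma-voom. There 3 had an unadjusted edgeR p under 0.05, as had 24.05% of all genes tested. Between OC+SM and OC none passed by edgeR or limma-voom, and DESeq2 called 1, Klf6. In that comparison 6 had an unadjusted edgeR p under 0.05, as had 16.87% of all genes tested. OC+SM differed from YC in 3 of them, where 22.4% of all genes passed. Klf6, a zinc finger factor, averaged 74.6 ± 7.64 CPM in OC+SM and 88.1 ± 3.52 in YC (-0.24 ± 0.07, edgeR adjusted p = 0.00985). Klf10, a TGF-beta-inducible factor, averaged 17.5 ± 1.48 CPM in OC+SM and 14.0 ± 1.47 in YC (0.33 ± 0.09, edgeR adjusted p = 0.0101). Socs3, an inhibitor of cytokine signalling, averaged 21.3 ± 3.98 CPM in OC+SM and 16.4 ± 1.45 in YC (0.38 ± 0.12, edgeR adjusted p = 0.0221). The Socs3 call was lost in 7 of 29 alternatives, both TPM fits and those without OC+SM 2, 3 or 6 or YC 2 or 6, with adjusted p up to 0.0942. Without YC 3 and OC+SM 6, Myc and Sgk1 also passed in OC against YC.

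Of 21 feedback regulators, among them phosphatases, Egr corepressors and factors that degrade unstable mRNAs, 20 could be tested. None passed in OC against YC or in OC+SM against OC by edgeR, DESeq2 (1 of the 20 had no adjusted p in the second) or limma-voom. An unadjusted edgeR p under 0.05 was held by 4 and 1 of them, and by 24.05% and 16.87% of all genes tested. Relative to YC, 2 were lower in OC+SM, both phosphatases of the dual-specificity family. Of all genes tested 10.9% were lower in that comparison. Dusp5 averaged 6.88 ± 1.83 CPM in OC+SM and 10.4 ± 1.65 in YC (-0.60 ± 0.16, edgeR adjusted p = 0.00893), and Dusp14 averaged 0.859 ± 0.444 and 2.10 ± 0.550 (-1.30 ± 0.33, edgeR adjusted p = 0.00641). The Egr corepressors did not pass: Nab1 had a log2 fold change of 0.02 ± 0.06 and Nab2 of -0.01 ± 0.10 in OC over YC. Zfp36, which degrades unstable mRNAs, gave 0.38 ± 0.14 in OC over YC (edgeR adjusted p = 0.0878).

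**Figure D4:**
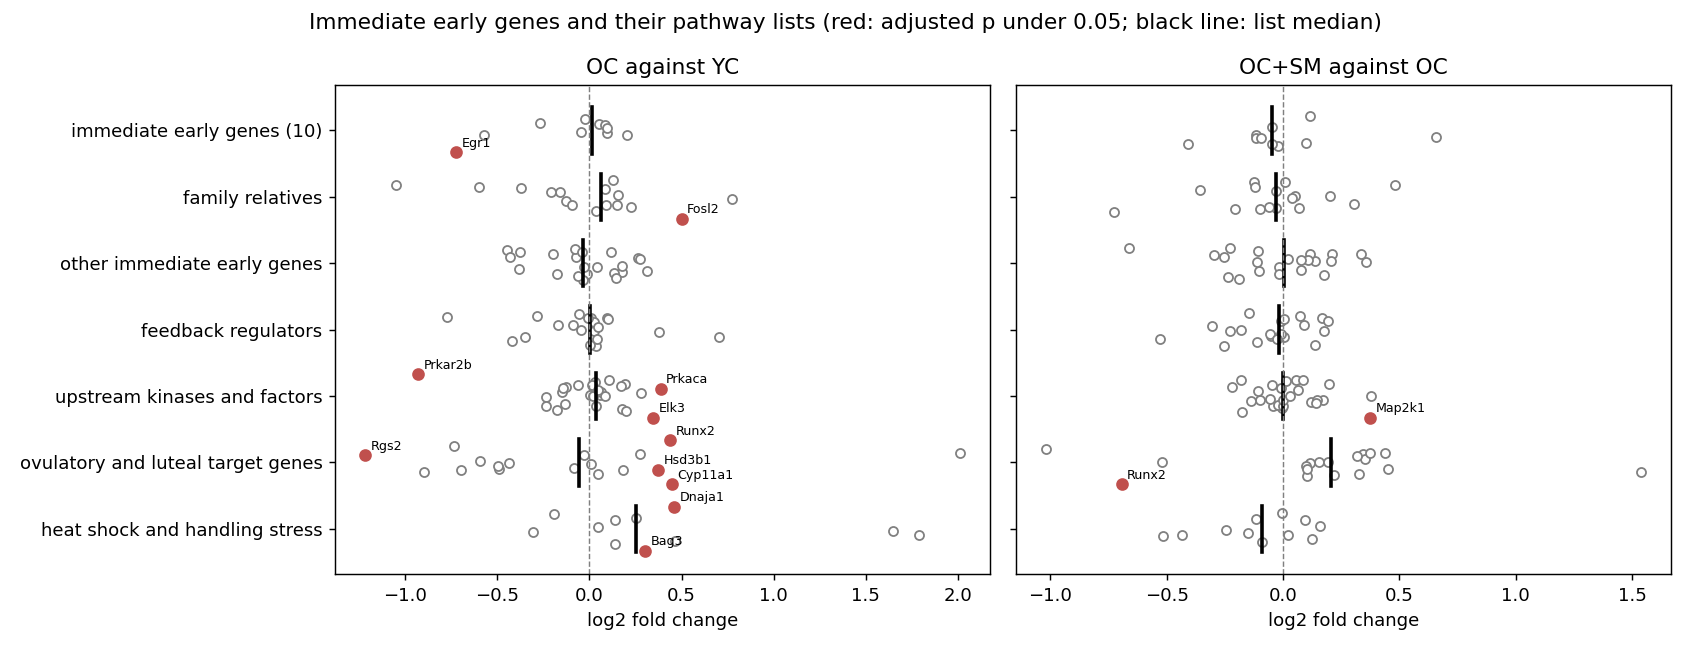
Log2 fold changes of the 10 immediate early genes and of the pathway lists, 1 point per tested gene except 1 upstream gene that is not drawn, in OC against YC (left) and OC+SM against OC (right); red points have an edgeR adjusted p under 0.05 and black lines are list medians. Egr1 lies at -0.72 and Fosl2 at 0.50 on the left, and no gene of the upper 4 lists is red on the right.

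All 27 upstream kinases and factors could be tested, and in OC against YC 3 were higher and 1 lower. Of all genes tested 11.3% passed there, 5.25% higher and 6.03% lower. Prkaca, a catalytic subunit of protein kinase A, averaged 135 CPM in OC and 103 CPM in YC (0.39 ± 0.08, edgeR adjusted p = 0.00175). Its partner Prkar2b, a regulatory subunit that holds the kinase inactive, averaged 294 CPM in OC and 560 CPM in YC (-0.93 ± 0.18, edgeR adjusted p = 0.00322). Elk3, a partner of serum response factor, was higher in OC (29.4 and 23.2 CPM, 0.35 ± 0.09, edgeR adjusted p = 0.00832). Between OC+SM and YC 7 were higher and 2 lower, where 22.4% of all genes passed (11.5% higher and 10.9% lower). Among the higher was Atf1, a CREB relative, at 33.5 CPM in OC+SM and 27.1 CPM in YC (0.30 ± 0.07, edgeR adjusted p = 0.00382), a call lost in both TPM fits. A single gene was higher in OC+SM than in OC, Map2k1, a kinase of the MAP kinase cascade, at 28.7 CPM in OC+SM and 22.2 CPM in OC (0.37 ± 0.09, edgeR adjusted p = 0.0407). In that comparison 0.548% of all genes tested were higher. Map2k1 was named after its value was seen, and its call was not followed through the 29 alternatives. The transcription factors nearest to the 10 genes gave small values in OC over YC: Creb1 0.06 ± 0.07, Srf -0.18 ± 0.16 and Elk1 0.03 ± 0.10.

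Of 20 ovulatory and luteal target genes 18 could be tested, and in OC against YC 3 were higher and 1 lower. The shares over all genes in that comparison were 5.25% higher and 6.03% lower. Cyp11a1 (0.45 ± 0.08, edgeR adjusted p = 0.000365) and Hsd3b1 (0.37 ± 0.07, edgeR adjusted p = 0.000446), enzymes of progesterone synthesis, were higher in OC. Runx2, a factor of the luteinizing follicle, had lowest, median and highest levels of 104, 117 and 173 CPM in OC+SM, 168, 208 and 227 CPM in OC, and 140, 149 and 166 CPM in YC. It was higher in OC than in YC (0.44 ± 0.10, edgeR adjusted p = 0.00571) and lower in OC+SM than in OC (-0.69 ± 0.10, edgeR adjusted p = 0.00406), comparisons that share the OC libraries. Rgs2, a brake on G protein signalling, had 192, 207 and 234 CPM in OC and 449, 479 and 547 CPM in YC, groups that did not overlap (-1.22 ± 0.08, edgeR adjusted p = 4.13e-10). The progesterone receptor gene Pgr, at 1.46 CPM in OC and 2.39 CPM in YC, did not pass (-0.70 ± 0.32, edgeR adjusted p = 0.173). Areg and Has2 reached at most 7 and 6 counts in any library and were not tested.

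Of 11 heat shock genes, which respond to stress and handling, 2 were higher in OC than in YC, Dnaja1 (0.46 ± 0.09, edgeR adjusted p = 0.000815) and Bag3 (0.30 ± 0.09, edgeR adjusted p = 0.0316). Among all genes tested 5.25% were higher in that comparison. The Bag3 call was kept in 19 of 29 alternatives, and that of Dnaja1 in 27, all but the TPM fits. Hspa8, a constitutive chaperone, was higher in OC+SM than in YC (778 and 643 CPM, 0.27 ± 0.09, edgeR adjusted p = 0.0338), a call kept in 14 of 29 alternatives. Hspa1a, the inducible heat shock protein, had lowest, median and highest levels of 4.86, 14.1 and 44.4 CPM in OC+SM, 8.28, 20.04 and 63.3 CPM in OC, and 4.96, 7.26 and 8.31 CPM in YC. Its OC over YC change of 1.79 ± 0.56 did not pass by edgeR (adjusted p = 0.0519), and DESeq2 called it. None of the 11 passed in OC+SM against OC by edgeR, DESeq2 or limma-voom. There 1 had an unadjusted edgeR p under 0.05, as had 16.87% of all genes tested. The part of handling in the levels of the 10 genes was not tested.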

How the data were processed

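RNA of 18 ovaries was sequenced with a QuantSeq 3' kit, per the labels' protocols; each mouse gave 1 library. GRCm39 is the build that the submitters' processing notes give, with STAR 2.7.9a, FastQC 1.9 and RSEM 1.3.3 as tools. The authors deposited expected counts per gene, 87.4% of which lay within 0.005 of a whole number, and TPM values, per the file headers. The TPM division by gene length does not suit 3' tags, so tests used counts; TPM served as an alternative, and genes are ordered by level on both scales. No annotation or strand setting is named in the labels or headers, so overlapping genes may share reads. Symbols came from an annotation of another build and matched 52083 of 55416 identifiers, with all 205 list genes found.

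Expected counts were rounded, filtered with the edgeR rule (16959 genes left, all 10 members among them), scaled by TMM (factors 0.937 to 1.07) and tested two-sided by quasi-likelihood in edgeR 4.0.16 under R 4.3.3, in 1 fit of 18 libraries with Benjamini-Hochberg adjustment over all genes. CPM are TMM-scaled, and 1 CPM stood for 9 to 20 counts. Chi-square per degree of freedom was at least 4.10 in all 153 pairs of libraries, so none differed by sampling noise alone. Intervals of a fold change are 95%. Correlations used 100000 permutations of mice within groups, two-sided, with Benjamini-Hochberg adjustment over 45 pairs for r and for rho apart. Alternatives used DESeq2 1.42.0 and limma 3.58.1, other scalings and filters, the libraries of 1 comparison only, TPM, a replicate block and each library left out. The fit and the permutation test were tested on simulated data.

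The rule for naming genes took all members in every comparison, up to 4 called genes per list by smallest p, and the 5 genes most and least like the members; Map2k1, Elk3, Egr2, Nr4a3, Nab1, Nab2, Zfp36, Creb1, Srf, Elk1, Pgr, Hspa1a, Myc, Sgk1 and the genes given for YC 3 were added after their values were seen. The members, lists and tests were chosen with earlier results of these data known. The result of 1 gene of the upstream list is counted but not reported here.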

Additional observations from a re-analysis of the deposited data

Results flagged for a closer look

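In 6 of the 33 groups of 6 libraries that were checked, 30 of them groups of a single member gene, the highest or lowest library lay farther from its nearest neighbour than Dixon's 95% limit allows. Chance flags about 1 in 20 groups. Of these, 4 were the same young mouse, YC 3: Egr1 at 102 CPM, Nr4a2 at 19.9 CPM, Jun at 76.1 CPM and Atf3 at 3.3 CPM, each the highest young value. The other two were Ier2 in YC 5, the lowest young value at 12.1 CPM, and Jund in OC+SM 4, the highest of its group at 189 CPM. Those flags were taken on CPM. On log2 CPM, the same limit was passed upward in YC 3 by 1.83% and downward by 4.46% of all genes tested. In the other young libraries these shares were 0.16% to 0.24% and 0.35% to 0.54%. Of the member genes, only Egr1 and Nr4a2 passed the limit in YC 3 on log2 CPM, and Jun and Atf3 did not. The flags on CPM can therefore not be set against these shares.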

How the results depend on the processing

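Over 29 alternatives and 30 fold changes of the members (870 values), 801 kept their direction and side of the threshold, 8 lost a call, 13 gained one and 48 turned direction, all of them uncalled; of 812 values of the other named genes 741 held and 71 lost their call. The cause of these changes was not tested. The number of members called in OC against YC was 0 with limma-voom, without the filter on low counts and in the fit of only the 12 libraries compared, and 2 without YC 3 and OC+SM 6. In OC+SM against OC it was 1 with DESeq2. In OC+SM against YC it was 2 with upper-quartile scaling, DESeq2, limma-voom, both TPM fits and without YC 3 and OC+SM 6. With 1 library left out it was 0 to 1, 0 to 1 and 1 to 2 in these comparisons. All genes called in OC+SM against OC, 176, were 663 with DESeq2, 292 with limma-voom, 45 in the fit of only those 12 libraries and 483 without YC 3 and OC+SM 6. Leaving out 1 library gave 32 to 593 there: 60, 105, 32, 593 and 318 without OC+SM 1, 2, 3, 4 and 5, 99, 102, 78, 72 and 85 without OC 1, 2, 3, 4 and 6, and 380 without YC 3. The correlated pairs were 1 with upper-quartile scaling, 2 with log2(TPM + 1), 2 with the replicate block and 0 to 2 with 1 library left out. The Jun and Egr1 pair is among those in each of these 3 settings.

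Directions that turned were those of low or barely moved genes. Fosb in OC over YC was -0.28 with limma-voom, -0.015 and -0.13 with log2(TPM + 1) and log2(TPM + 0.1), -0.13 with the replicate block and -0.42 to 0.33 with 1 library left out. In OC+SM over OC it was 0.32 with limma-voom, 0.065 with log2(TPM + 0.1), 0.054 with the replicate block, 0.049 without YC 3 and OC+SM 6, and -0.35 to 0.40 with 1 library left out. In OC+SM over YC it was 0.039 with limma-voom, 0.36 without YC 3 and OC+SM 6, and -0.19 to 0.19. Atf3 in OC+SM over OC was -0.042 with log2(TPM + 1) and -0.063 without YC 3 and OC+SM 6. Without those 2 libraries Jun in OC over YC was 0.023 and Nr4a2 in OC+SM over OC 0.031. With 1 library left out, Atf3 ran from -0.13 to 0.40 in OC over YC, -0.088 to 0.28 in OC+SM over OC and -0.019 to 0.52 in OC+SM over YC. Fos ran from -0.024 to 0.26, Egr1 from -0.13 to 0.046 and Nr4a2 from -0.096 to 0.032 in OC+SM over OC. Jun ran from -0.087 to 0.020 and Jund from -0.076 to 0.00046 in OC over YC, and Junb from -0.10 to 0.022 in OC+SM over YC.

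The replicate numbers showed no sign of pairing the mice: same-numbered libraries of 2 groups correlated at -0.12 to 0.07, and no pair passed 0.1. With the replicate block 1756, 139 and 3535 genes were called in OC against YC, OC+SM against OC and OC+SM against YC, beside 1912, 176 and 3795, and Egr1 in OC over YC was -0.68 (edgeR adjusted p = 0.0212). 1 library in each comparison correlated best with its own number. No fit included the cages that OC and OC+SM mice shared, and the replicate numbers need not follow those cages. Nothing in the labels says that mice of a group shared a litter or day, and p-values measure the spread between these mice only. Fos, Fosb and Atf3 had 2 to 56 counts per library and a spread between mice beyond counting error of 29.2%, 55.8% and 40.5%, so both depth and that spread widen their intervals.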
